A study of Mus musculus with 6 samples.

Results

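Calcium pumps and calcium release channels were examined in primary brown adipocytes of WT and Ucp1-KO mice. The set comprises 10 genes chosen by name, of which 4 encode pumps (Atp2a2, Atp2a3, Atp2b1 and Atp2b4), 5 encode release channels of the endoplasmic reticulum (Itpr1, Itpr2, Itpr3, Ryr2 and Ryr3) and 1 encodes the pore of the mitochondrial calcium uniporter (Mcu). The deposited table holds 28890 RefSeq transcript rows, 16 of which belong to these genes. Where a gene had several rows, the row with the highest mean over all cultures stands for it, and near-zero genes were kept. The genes were named by family and not by a threshold on their values, although earlier results of these data were known.

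RNA came from 6 independent cultures, 3 WT (replicates 10, 11 and 12) and 3 Ucp1-KO (replicates 13, 14 and 15). Precursor cells were taken from interscapular brown adipose tissue of young male mice of the 129SvEvS1 strain and differentiated in the dish. WT mice carried an intact Ucp1 gene and Ucp1-KO mice were UCP1(-/-), a deletion that is not limited to fat cells. Cells of both genotypes were induced with isobutylmethylxanthine, indomethacin, dexamethasone, insulin, T3 and rosiglitazone and then kept in insulin, T3 and rosiglitazone, and no adrenergic stimulus is named for the RNA samples. Values are RPKM, read numbers scaled to transcript length and to the depth of the culture, so that levels of different genes can be compared.

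Cells keep cytosolic calcium low. SERCA pumps (Atp2a genes) use ATP to move calcium into the endoplasmic reticulum, and PMCA pumps (Atp2b genes) use ATP to move it out of the cell. Calcium leaves the reticulum through IP3 receptors (Itpr genes), which open in response to the messenger inositol trisphosphate, and through ryanodine receptors (Ryr genes), best known from muscle and neurons. Part of the released calcium enters mitochondria through the uniporter. Cycling of calcium between the reticulum and the cytosol hydrolyses ATP at the SERCA pump and has been proposed as a source of heat that does not need UCP1.

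SERCA2, the product of Atp2a2, comes in 2 main forms that differ only at the end. The last coding bases are shown because they are what separates the table's rows for this gene. The gene lies on the reverse strand of chromosome 5 of GRCm38 (chr5:122453513-122502225). Up to the end of a shared stretch (chr5:122457303-122457332, lower case) both transcripts are the same. SERCA2b reads on into the following bases (chr5:122457151-122457302), whereas in SERCA2a the transcript is spliced there to a separate last exon (chr5:122454291-122454304 for its coding part). Capitals mark the coding bases and stop codon that are particular to each form, from the GENCODE M21 transcripts that match RefSeq NM_001110140 and NM_009722.
SERCA2b: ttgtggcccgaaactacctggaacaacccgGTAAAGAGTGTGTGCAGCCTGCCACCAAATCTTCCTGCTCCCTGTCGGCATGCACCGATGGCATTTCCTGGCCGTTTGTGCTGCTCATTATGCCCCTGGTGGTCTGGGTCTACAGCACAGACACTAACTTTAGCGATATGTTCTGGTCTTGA
SERCA2a: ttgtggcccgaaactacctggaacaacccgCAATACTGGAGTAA
SERCA2b thus ends with 152 bases of its own and SERCA2a with 14, stop codon included. The annotated proteins have 1044 and 998 codons.

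As a check of the genotypes, Ucp1 was listed at 1775, 981 and 1157 RPKM in the WT cultures and at 307, 409 and 398 RPKM in the Ucp1-KO cultures, whose mean was 28.4% of the WT mean (log2 fold change -1.78, limma adjusted p = 0.868). Ucp1 transcript was thus lower but not absent in Ucp1-KO cells, without overlap between the genotypes. The paper attributes the mRNA left in Ucp1-KO cells to a remnant transcript that lacks some exons and is not functional. It detected no UCP1 protein in these cells by Western blot. Adipocyte markers were abundant in every culture, with a summed level of 6 genes between 28645 and 31809 RPKM, and 9 brown adipocyte genes, Ucp1 included, summed to between 1986 and 3589 RPKM. Markers of other cell types were present at lower and uneven levels. The summed level ran from 602 to 1624 RPKM for 10 stromal and preadipocyte genes, from 42.9 to 825 RPKM for 9 macrophage and leukocyte genes, from 36.9 to 205 RPKM for 6 smooth muscle and mural cell genes, from 3.55 to 20.4 RPKM for 10 skeletal muscle genes, from 2.78 to 33.4 RPKM for 6 endothelial genes and from 9.16 to 12.6 RPKM for 7 Schwann cell and neuron genes. The steps between low RPKM values gave the number of mapped reads behind each culture, between 14989604 and 17727653, and from it read numbers per transcript. In bulk RNA, fewer cells of a type and less RNA per cell cannot be told apart.

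Atp2a2 was the most abundant gene of the set by a wide margin, and the ryanodine receptors were at or near 0. The mean over all 6 cultures was 51.7 RPKM for Atp2a2, 12.2 for Atp2a3, 8.80 for Itpr1, 7.53 for Mcu, 6.62 for Itpr2, 5.21 for Atp2b1, 1.16 for Atp2b4, 0.428 for Itpr3, 0.124 for Ryr2 and 0.00326 for Ryr3. Among all RefSeq rows, Atp2a2 held place 1415 and Ryr3 place 23152. Not all neighbours in this order were separated. Atp2a2 exceeded Atp2a3 in 6 of 6 cultures, and each step from Atp2b1 down to Ryr3 also held in 6 of 6. Between these, Atp2a3 exceeded Itpr1 in 4 of 6 cultures, Itpr1 exceeded Mcu in 4 of 6, Mcu exceeded Itpr2 in 5 of 6 and Itpr2 exceeded Atp2b1 in 5 of 6, so that the middle of the order differed between cultures.

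**Figure D1:**
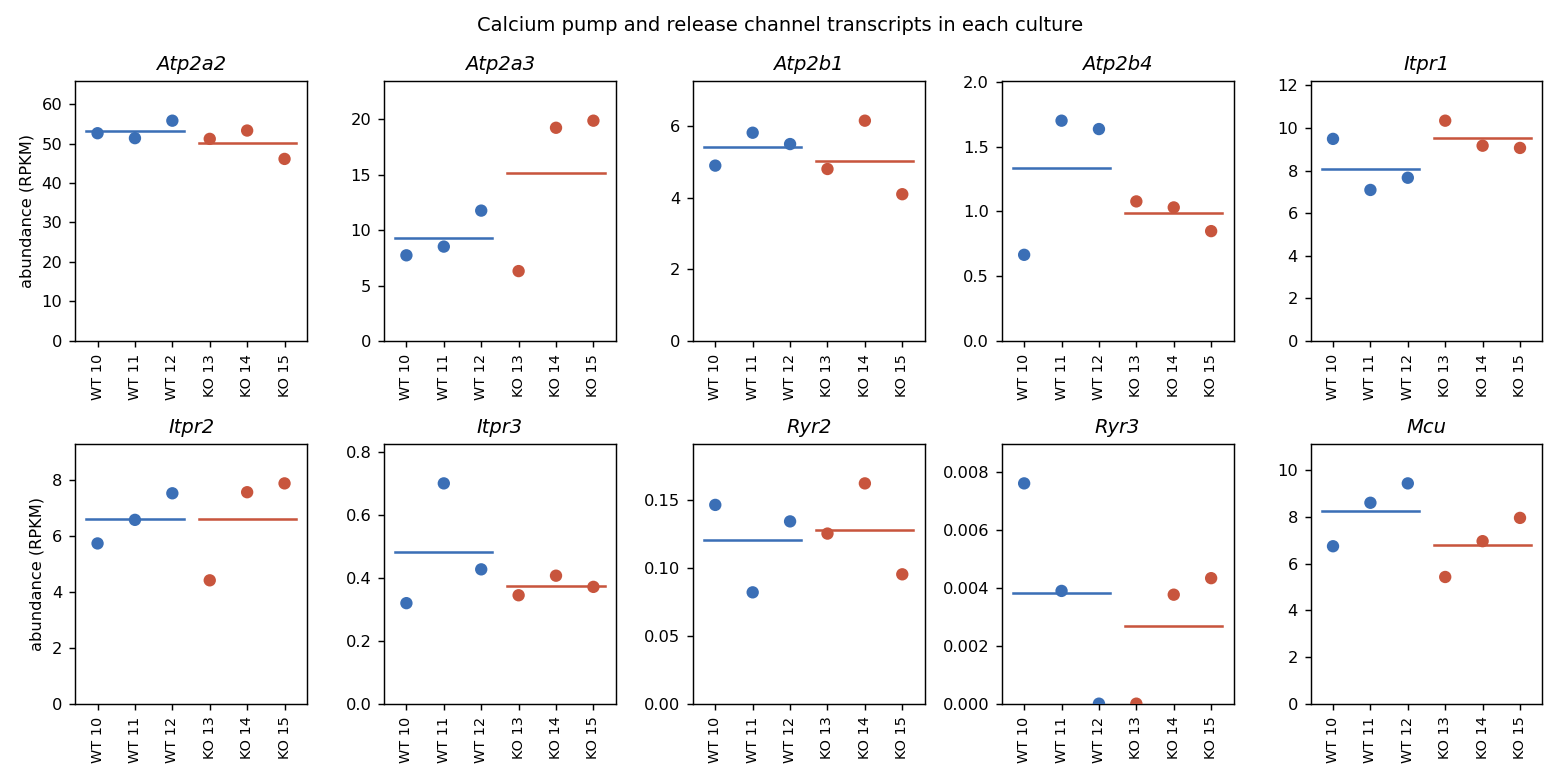
Abundance in RPKM of each of the 10 genes (vertical axis, from 0, with its own scale per gene) in the 3 WT (blue) and 3 Ucp1-KO (red) cultures. Points are cultures and lines are the means of each genotype. The genotypes overlap for every gene, and Atp2a3 spans the widest range among Ucp1-KO cultures, from 6.30 to 19.9 RPKM.

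Between the genotypes, 0 of the 10 genes passed a test. RefSeq rows with a mean of at least 0.5 RPKM, 16865 in all, were compared on the log2(RPKM + 1) scale with limma, whose variance prior followed the mean level, and p-values were adjusted by Benjamini-Hochberg over all of them. A log2 fold change above 0 means more transcript in Ucp1-KO cells, and adding 1 RPKM makes changes of rare transcripts look smaller. Of the set, 7 genes passed the minimum and were tested, and Itpr3, Ryr2 and Ryr3 did not pass it. None of the 7 had a limma adjusted p under 0.05, as for 0.0% of all rows. An unadjusted p under 0.05 was held by 0 of 7, against 5.54% of all rows (2.3% above and 3.24% below the WT level). The smallest limma adjusted p over all rows was 0.868, so that even Ucp1, the targeted gene, did not pass. A missing call thus does not show equal levels. Limma-voom on the recovered read numbers also gave 0 of 7 at either threshold. The genotypes overlapped in all 10 genes, Itpr3, Ryr2 and Ryr3 included. They did not overlap for 11.2% of the rows tested (6.04% higher and 5.15% lower in Ucp1-KO cells), which leave out these 3 genes. With so few genes, 0 does not stand apart from that share. Of the 7 genes, 2 had a higher and 5 a lower mean log2 level in Ucp1-KO cells, with a median log2 fold change of -0.09 against -0.0016 over all rows. Exact two-sided permutation tests of the 10 RPKM levels gave p between 0.3 and 1.0, where 3 against 3 cultures cannot go below 0.10, and at least 0.8 after Benjamini-Hochberg adjustment over the 10 genes.

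**Figure D2:**
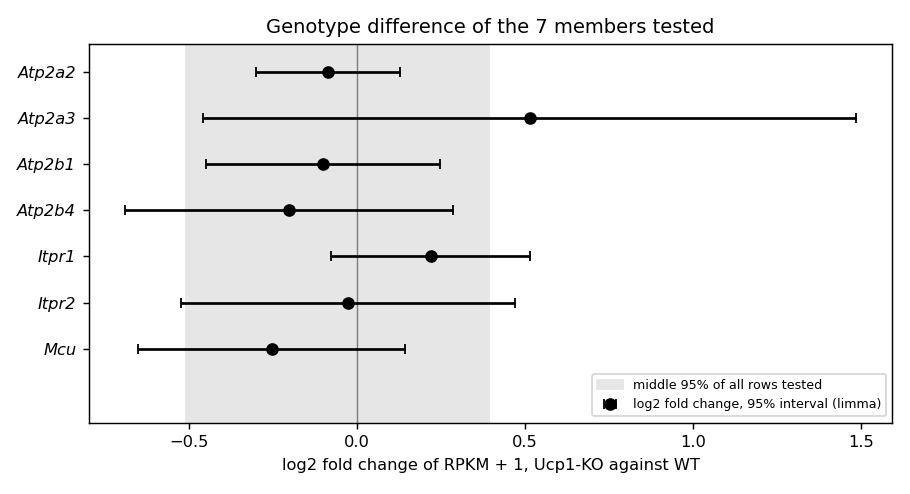
Log2 fold change of RPKM + 1 (horizontal axis, Ucp1-KO against WT) of the 7 genes tested, as points with 95% intervals from limma. The grey band holds the middle 95% of all 16865 rows. All 7 intervals include 0, and that of Atp2a3 is the widest, from -0.46 to 1.48.

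The housekeeping pump of the reticulum, Atp2a2, had the smallest spread within genotypes of the 7 genes tested. Its level was 52.6, 51.4 and 55.8 RPKM in WT replicates 10, 11 and 12 and 51.2, 53.3 and 46.1 RPKM in Ucp1-KO replicates 13, 14 and 15. Ucp1-KO replicate 15 was the lowest culture, and the other 5 lay close together. The means were 53.2 ± 2.28 and 50.2 ± 3.69 RPKM (SD, n = 3 each). The log2 fold change was -0.09 with a standard error of 0.09 and a 95% interval from -0.30 to 0.13 (limma adjusted p = 0.905). It was -0.03 without Ucp1-KO replicate 15, -0.05 without WT replicate 12 and -0.13 without Ucp1-KO replicate 14. The spread within genotypes, a standard deviation of 0.086 on the log2 scale, was smaller than that of all but 13.9% of the rows tested.

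All 3 RefSeq rows of Atp2a2, which share most of their exons, were abundant. NM_001110140, with the SERCA2b end, had the highest mean. The row NM_009722, with the SERCA2a end, had 45.6, 41.1 and 45.9 RPKM in WT and 43.5, 45.0 and 39.2 RPKM in Ucp1-KO cultures. A non-coding row, NR_027838, contains both ends and is 1410 bases longer than NM_009722. These are exactly the bases by which the SERCA2b end of NR_027838 runs past the shared stretch in GENCODE, and only a small part of them is coding. The difference in reads between these rows was 1079, 1202 and 1223 in WT and 1028, 1151 and 845 in Ucp1-KO cultures. Per length this came to 48.3 ± 3.17 RPKM for WT and 44.2 ± 3.79 RPKM for Ucp1-KO (SD, n = 3 each, exact permutation test, p = 0.3).

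NR_027838 also exceeds NM_001110140 by 1223 bases, of which 791 are the last exon of SERCA2a in GENCODE and the others lie further along the SERCA2b end. Here the difference was 392, 302 and 284 reads in WT and 336, 361 and 271 reads in Ucp1-KO cultures, or 15.6 ± 2.91 and 16.3 ± 1.32 RPKM (SD, n = 3 each, exact permutation test, p = 0.8). The first of these stretches had the higher read density in 6 of 6 cultures. The density of the second was 0.325 ± 0.0817 of the first in WT and 0.369 ± 0.00762 of it in Ucp1-KO cells (SD, n = 3 each, exact permutation test, p = 0.4). These differences were formed after the values were seen, and they assume that a read counts toward every row it lies on. The lengths of these 3 rows, like those of the Itpr1 and Itpr2 rows, were found from the values themselves. RPKM over an end also depends on coverage along the transcript, which the table does not give.

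Atp2a3, which encodes SERCA3, a pump known above all from blood cells, endothelium and secretory epithelia, had the largest spread of the 7 genes tested. It lies on chromosome 11 (chr11:72961169-72993043). Its level was 7.72, 8.51 and 11.8 RPKM in the WT cultures and 6.30, 19.2 and 19.9 RPKM in the Ucp1-KO cultures, on 460 to 1498 reads. Ucp1-KO replicate 13 was the lowest of all cultures, and Ucp1-KO replicates 14 and 15 were the highest, a 3.15-fold range within the genotype. The means were 9.33 ± 2.14 and 15.1 ± 7.65 RPKM (SD, n = 3 each), with a log2 fold change of 0.51, a standard error of 0.41 and a 95% interval from -0.46 to 1.48 (limma adjusted p = 0.885). The standard deviation within genotypes, 0.642 on the log2 scale, exceeded that of 97.3% of the rows tested. Without Ucp1-KO replicate 13 the log2 fold change was 1.01 (limma unadjusted p = 0.00119, adjusted p = 0.456). Without WT replicate 12 it was 0.68, without Ucp1-KO replicate 14 it was 0.28 and without Ucp1-KO replicate 15 it was 0.25. The other 2 RefSeq rows of the gene, NM_016745 and NM_001163337, gave nearly the same values, from 6.26 to 19.7 and from 6.25 to 19.6 RPKM.

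Since SERCA3 is abundant in blood cells, the markers of other cell types were set beside it. The summed level of the 9 macrophage and leukocyte genes was 60.2, 182 and 112 RPKM in WT and 168, 825 and 42.9 RPKM in Ucp1-KO cultures. The pair with the highest Atp2a3 thus held both the highest and the lowest sum of these markers, and the T cell gene Cd3e was at 0 in all 6 cultures. Endothelial genes summed to 2.78, 33.4 and 15.4 RPKM in WT and 6.77, 15.7 and 5.59 RPKM in Ucp1-KO cultures, with the highest sum in WT replicate 11 and the next in Ucp1-KO replicate 14. Smooth muscle and mural cell genes, led by Acta2, summed to 205, 142 and 121 RPKM in WT and 166, 54.4 and 36.9 RPKM in Ucp1-KO cultures, lowest where Atp2a3 was highest. All 6 of these genes had a lower mean log2 level in Ucp1-KO cells, 3 of them with a limma unadjusted p under 0.05 and 0 with an adjusted p under 0.05, where 8496 of all 16865 rows were lower and 3.24% were lower with an unadjusted p under 0.05. Stromal and preadipocyte genes were at 696, 1624 and 969 RPKM in WT and 975, 881 and 602 RPKM in Ucp1-KO cultures. The part of these markers in the level of Atp2a3 was not tested.

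**Figure D3:**
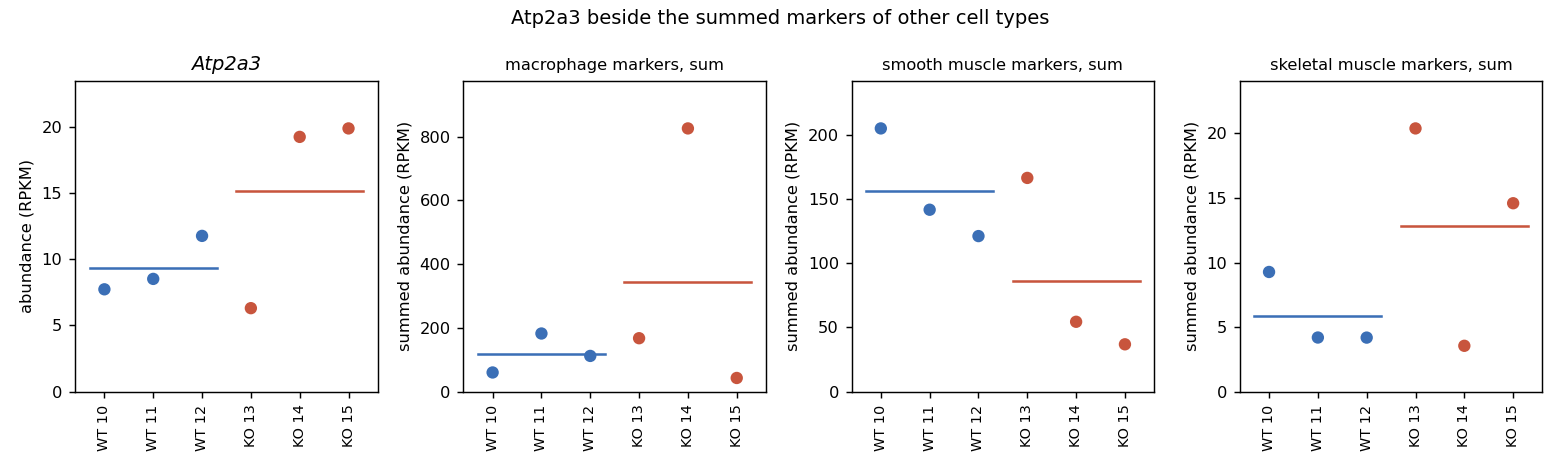
Abundance of Atp2a3 (left, RPKM) beside the summed RPKM of macrophage and leukocyte, smooth muscle and mural cell, and skeletal muscle markers in the 3 WT (blue) and 3 Ucp1-KO (red) cultures. Points are cultures and lines the means of each genotype. Atp2a3 is highest in Ucp1-KO replicates 14 and 15, where macrophage markers are at 825 and 42.9 RPKM and smooth muscle markers at 54.4 and 36.9 RPKM.

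The third SERCA gene, Atp2a1, the pump of fast skeletal muscle, had 6 to 22 reads and 0.101 to 0.427 RPKM. Atp2a2 made up 86.9, 85.6 and 82.4% of the summed SERCA RPKM in WT cultures and 88.7, 73.4 and 69.4% in Ucp1-KO cultures. The genotypes overlapped, with means of 85.0 ± 2.31% and 77.2 ± 10.2% (SD, n = 3 each, exact permutation test, p = 0.4). The difference of -7.83 percentage points was -13.6 without Ucp1-KO replicate 13 and -3.96 without Ucp1-KO replicate 15. Of the small proteins that bind SERCA and lower its efficiency or calcium affinity, sarcolipin (Sln) had 1 read in Ucp1-KO replicate 15 and 0 in the other cultures. Phospholamban (Pln) had 0 to 3 reads per culture. Both were thus at or below 3 reads, the floor used here for counting error only.

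Both PMCA genes of the set were present, with Atp2b1, the widely expressed plasma membrane pump, above Atp2b4. On chromosome 10 (chr10:98914630-99026143), Atp2b1 had 4.90, 5.82 and 5.50 RPKM in WT and 4.80, 6.15 and 4.10 RPKM in Ucp1-KO cultures, with the highest and the lowest value both in Ucp1-KO cells. Its log2 fold change was -0.10 (standard error 0.15, 95% interval from -0.45 to 0.25, limma adjusted p = 0.930). Leaving out 1 culture moved it between -0.23 (without Ucp1-KO replicate 14) and 0.011 (without Ucp1-KO replicate 15), with -0.16 and -0.055 without WT replicates 10 and 11. Atp2b4 on chromosome 1 (chr1:133702674-133801059) had 0.665, 1.70 and 1.64 RPKM in WT and 1.08, 1.03 and 0.848 RPKM in Ucp1-KO cultures. The WT cultures lay on either side of all Ucp1-KO cultures, with replicate 10 below and replicates 11 and 12 above. The log2 fold change was -0.20 (standard error 0.21, 95% interval from -0.69 to 0.29, limma adjusted p = 0.904). With 0.1 RPKM added in place of 1 it was -0.31, and with limma-voom on reads -0.32. Without WT replicate 10 it was -0.43 (limma unadjusted p = 0.0156, adjusted p = 0.415), and without WT replicate 11 or 12 it was -0.08 or -0.10. Atp2b2 and Atp2b3, which are best known from neurons and sensory cells, had at most 1 read in any culture. The share of Atp2b1 in the summed PMCA RPKM was 80.7 ± 6.21% in WT and 83.3 ± 2.02% in Ucp1-KO cells (SD, n = 3 each, exact permutation test, p = 0.6). The difference of 2.61 percentage points was 6.19 without WT replicate 10, 0.891 without WT replicate 11, 0.741 without WT replicate 12 and 1.47 without Ucp1-KO replicate 14.

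Release channels were almost entirely IP3 receptors. Itpr1, the receptor of highest level here and on chromosome 6 (chr6:108213083-108551116), had 9.49, 7.09 and 7.66 RPKM in WT and 10.3, 9.17 and 9.06 RPKM in Ucp1-KO cultures. Only WT replicate 10 lay within the Ucp1-KO range, and the other WT cultures lay below it. The means were 8.08 ± 1.25 and 9.53 ± 0.710 RPKM (SD, n = 3 each). The log2 fold change was 0.22 (standard error 0.12, 95% interval from -0.08 to 0.52, limma adjusted p = 0.876), with the smallest unadjusted p of the set (0.123). Without WT replicate 10 it was 0.33 (limma unadjusted p = 0.0254, adjusted p = 0.441), and without WT replicate 11 it was 0.14.

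Itpr2, the IP3 receptor that binds its messenger most tightly, lies on the same chromosome (chr6:146108299-146502258). It had 5.74, 6.58 and 7.53 RPKM in WT and 4.42, 7.57 and 7.89 RPKM in Ucp1-KO cultures. Ucp1-KO cultures held both the lowest value and the highest pair, and the means were 6.62 ± 0.898 and 6.62 ± 1.92 RPKM (SD, n = 3 each). The log2 fold change was -0.03 (standard error 0.21, 95% interval from -0.52 to 0.47, limma adjusted p = 0.989), and with 1 culture left out it lay between -0.15 (without Ucp1-KO replicate 15) and 0.20 (without Ucp1-KO replicate 13). It was -0.11, 0.06 and -0.13 without WT replicate 10, WT replicate 12 and Ucp1-KO replicate 14. Itpr3 on chromosome 17 (chr17:27057002-27122223) was rare, with 0.319, 0.700 and 0.427 RPKM in WT and 0.344, 0.407 and 0.371 RPKM in Ucp1-KO cultures, on 49 to 105 reads. WT replicates 10 and 11 were its lowest and highest culture.

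Itpr1 made up 61.0, 49.3 and 49.1% of the summed IP3 receptor RPKM in WT and 68.5, 53.5 and 52.3% in Ucp1-KO cultures. In each genotype 1 culture stood above the others, WT replicate 10 and Ucp1-KO replicate 13, and Itpr2 had its lowest value of the genotype in the same cultures. The genotypes overlapped, at 53.2 ± 6.84% and 58.1 ± 9.01% (SD, n = 3 each, exact permutation test, p = 0.5), and the difference of 4.95 percentage points was 8.90 without WT replicate 10, 7.83 without Ucp1-KO replicate 15 and -0.25 without Ucp1-KO replicate 13. Itpr3 contributed between 2.05 and 4.87%. Summed over the family, IP3 receptor RPKM was 0.242 ± 0.0132 of SERCA RPKM in WT and 0.253 ± 0.0145 of it in Ucp1-KO cells (SD, n = 3 each, exact permutation test, p = 0.3). The difference of 0.0105 was 1.29e-05 with all RefSeq rows of each gene summed, 0.0177 without WT replicate 10, 0.0189 without Ucp1-KO replicate 14, and 0.00469, 0.00607 and 0.00648 without WT replicate 12, Ucp1-KO replicate 13 and Ucp1-KO replicate 15. The 5 family ratios tested, this one included, had adjusted p-values of at least 0.75.

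**Figure D4:**
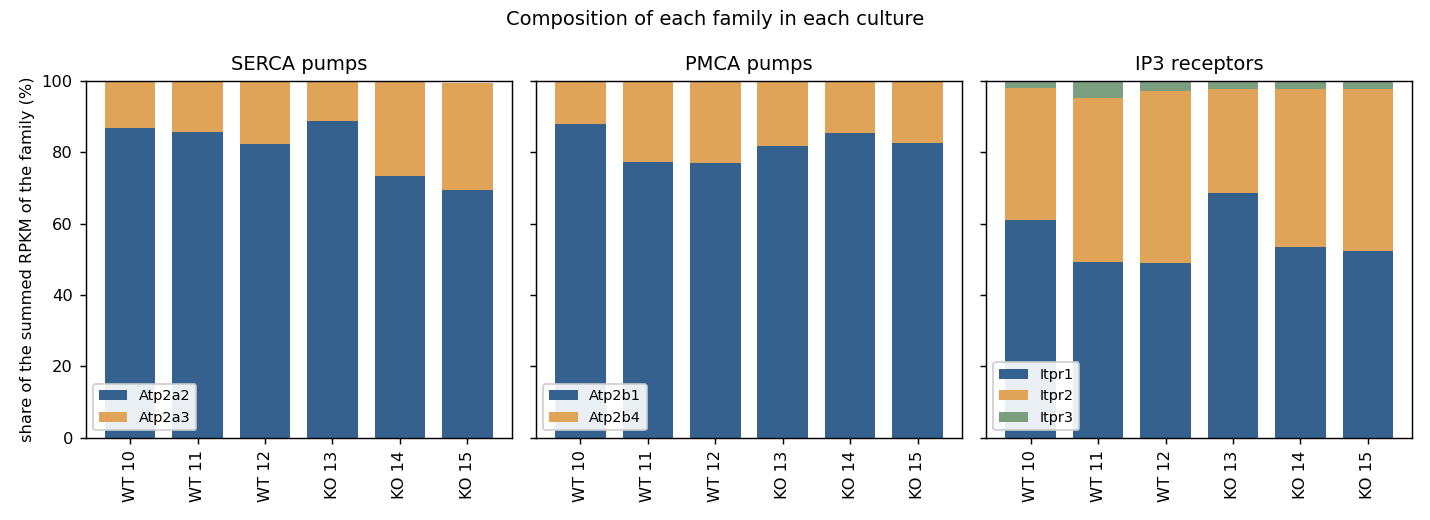
Share in percent (vertical axis, 0 to 100) of each gene in the summed RPKM of its family, stacked per culture, for SERCA pumps, PMCA pumps and IP3 receptors in 3 WT and 3 Ucp1-KO cultures. Atp2a1, Atp2b2 and Atp2b3 count in the sums and are too small to be drawn. Atp2a2 is at 88.7% in Ucp1-KO replicate 13 and at 69.4% in Ucp1-KO replicate 15, and Itpr1 is highest in WT replicate 10 and Ucp1-KO replicate 13.

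Ryanodine receptors were rare in all cultures. Ryr2, the receptor of heart muscle on chromosome 13 (chr13:11553099-12106945), had 0.146, 0.0820 and 0.134 RPKM in WT and 0.125, 0.162 and 0.0952 RPKM in Ucp1-KO cultures. These values rested on 23 to 47 reads over a transcript of 16814 bases, above the floor of 3 reads in 6 of 6 cultures. Ryr3 on chromosome 2 (chr2:112631354-113217405) had 2, 1 and 0 reads in WT and 0, 1 and 1 reads in Ucp1-KO cultures. It stayed below the floor of 3 reads, equal to 0.0110 to 0.0130 RPKM at its length of 15410 bases. Ryr1, the skeletal muscle receptor, had 3, 1 and 1 reads in WT and 12, 0 and 10 reads in Ucp1-KO cultures. The cultures with 12 and 10 reads, Ucp1-KO replicates 13 and 15, also had the highest summed skeletal muscle markers, with 20.4 and 14.6 RPKM against 3.55 to 9.27 RPKM in the others. The part of muscle cells in the Ryr1 reads was not tested.

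Mcu, the pore of the mitochondrial uniporter on chromosome 10 (chr10:59446984-59617409), had 6.75, 8.62 and 9.45 RPKM in WT and 5.43, 6.97 and 7.97 RPKM in Ucp1-KO cultures. The Ucp1-KO mean was 82.1% of the WT mean, and 2 of 3 Ucp1-KO cultures lay within the WT range. The log2 fold change was -0.25 (standard error 0.17, 95% interval from -0.65 to 0.14, limma adjusted p = 0.876). Without WT replicate 10 it was -0.38, without WT replicate 12 it was -0.16 and without Ucp1-KO replicate 13 it was -0.12. Smdt1, whose product EMRE is needed for uniporter activity, was far more abundant, at 135 ± 4.40 RPKM for WT and 136 ± 3.19 RPKM for Ucp1-KO cultures, and its log2 fold change had a 95% interval from -0.18 to 0.20. The gatekeeper gene Micu2 had a WT level of 26.6 ± 2.63 RPKM and a Ucp1-KO level of 23.1 ± 1.23 RPKM (SD, n = 3 each).

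The inhibitory pore subunit Mcub was rare, with 28, 40 and 40 reads in WT and 34, 24 and 12 reads in Ucp1-KO cultures. Relative to Mcu it stood at 0.184, 0.211 and 0.181 in WT and at 0.294, 0.152 and 0.0762 in Ucp1-KO cultures. Ucp1-KO cultures thus held both the highest and the lowest ratio (means 0.192 ± 0.0164 and 0.174 ± 0.111, SD, n = 3 each, exact permutation test, p = 0.8). The difference of -0.0183 changed its sign, to 0.0306, without Ucp1-KO replicate 15, and was -0.0783 without Ucp1-KO replicate 13, -0.00883 without WT replicate 11 and -0.00708 without Ucp1-KO replicate 14.

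Levels of the members also differed between cultures of 1 genotype. WT replicate 10 and Ucp1-KO replicate 13 were each the lowest of their genotype for Atp2a3, Itpr2, Itpr3 and Mcu, 4 of the 9 members above 0 in every culture, and each the highest for Itpr1. Over all rows tested, the same cultures were both lowest for 33.9% and both highest for 15.5%. The numbers of the replicates are not shared between genotypes and no label links these cultures. With WT replicate 10 left out, Atp2b4, Itpr1, Mcu and the untested Itpr3 no longer overlapped between genotypes. The genotypes thus did not overlap for 4 of the 10 genes, against 32.8% of all rows tested. With Ucp1-KO replicate 13 left out they did not overlap for 2 (Atp2a3 and Itpr2), against 27.8% of all rows. With Ucp1-KO replicate 14 left out they did not overlap for 2 (Atp2a2 and Atp2b1), against 17.9%.

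Around the 10 genes, 90 other genes of calcium handling were listed, of which 89 had a RefSeq row and 61 were abundant enough to be tested. Of these, 0 had a limma adjusted p under 0.05, against 0.0% of all rows, and 0 an unadjusted p under 0.05, against 5.54% of all rows. The mean log2 level was above that of WT for 21 and below it for 40, with a median log2 fold change of -0.09. Over all rows it was above for 8369 and below for 8496, with a median of -0.0016. The 40 include all 12 genes of the chaperone list, which is described below. Limma-voom on reads also gave 0 at both thresholds. The most abundant gene of each list did not pass the test. Among 17 genes of IP3 production and receptor partners this was Grina, an antiapoptotic membrane protein gene (214 RPKM over all cultures, log2 fold change 0.01), and among 16 ryanodine receptor partners it was S100a1, a calcium-binding protein gene (269.98 RPKM, 0.12). Of the uniporter and mitochondrial genes it was Vdac1, an outer membrane channel (172 RPKM, -0.02), and of store-operated entry Saraf, which slows that entry (88.5 RPKM, -0.02). Of other plasma membrane channels and exchangers it was Trpm7, a cation channel with a kinase domain (12.9 RPKM, 0.12), of the Golgi pumps Atp2c1 (8.78 RPKM, -0.10) and of the SERCA regulators Thada, a SERCA-binding protein gene (2.09 RPKM, 0.07). The Golgi pump gene Atp2c2 was at 0 reads in all cultures.

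Calcium-binding chaperones and folding proteins of the reticulum shared their direction, although 0 passed the test. All 12 of these genes were tested and all 12 had a lower mean log2 level in Ucp1-KO cells, by log2 fold changes from -0.46 to -0.12 and a median of -0.25, against 8496 of 16865 rows lower and a median of -0.0016 over all rows. With all 6 cultures, none of the 12 had an unadjusted p under 0.05. With median-of-ratios scaling 12 of 12 were lower as well, and without WT replicate 11 it was 11 of 12, with a median of -0.14. Without WT replicate 10 the median was -0.38 and 8 of the 12 had an unadjusted p under 0.05 in limma, against 10.4% of all rows, with a smallest adjusted p of 0.376. Without Ucp1-KO replicate 13 this held for 1 of the 12. The most abundant, Hspa5, which encodes the chaperone BiP, had 285, 530 and 575 RPKM in WT and 236, 367 and 402 RPKM in Ucp1-KO cultures, so that the genotypes overlapped (log2 fold change -0.44, standard error 0.31, limma adjusted p = 0.878). The summed level of the list was 1229, 1891 and 1807 RPKM in WT and 1163, 1399 and 1381 RPKM in Ucp1-KO cultures. The summed level of stromal and preadipocyte markers was also highest in WT replicate 11. Their mean log2 level was lower in Ucp1-KO cells for 9 of the 9 genes tested (median log2 fold change -0.44). The mean RPKM of 1 of them, Ly6a, was higher there, at 122 against 114. Smooth muscle and mural cell markers had a lower mean log2 level in Ucp1-KO cells for 6 of 6 (median -0.74). The part of these cells in the level of the chaperone genes was not tested. Without WT replicate 10, 15 of all 68 calcium genes tested had an unadjusted p under 0.05 in limma, against 10.4% of all rows. Of the 15, 14 were lower in Ucp1-KO cells, and they include the 8 chaperone genes already counted above. Without Ucp1-KO replicate 13 there were 7, against 9.14% of all rows.

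**Figure D5:**
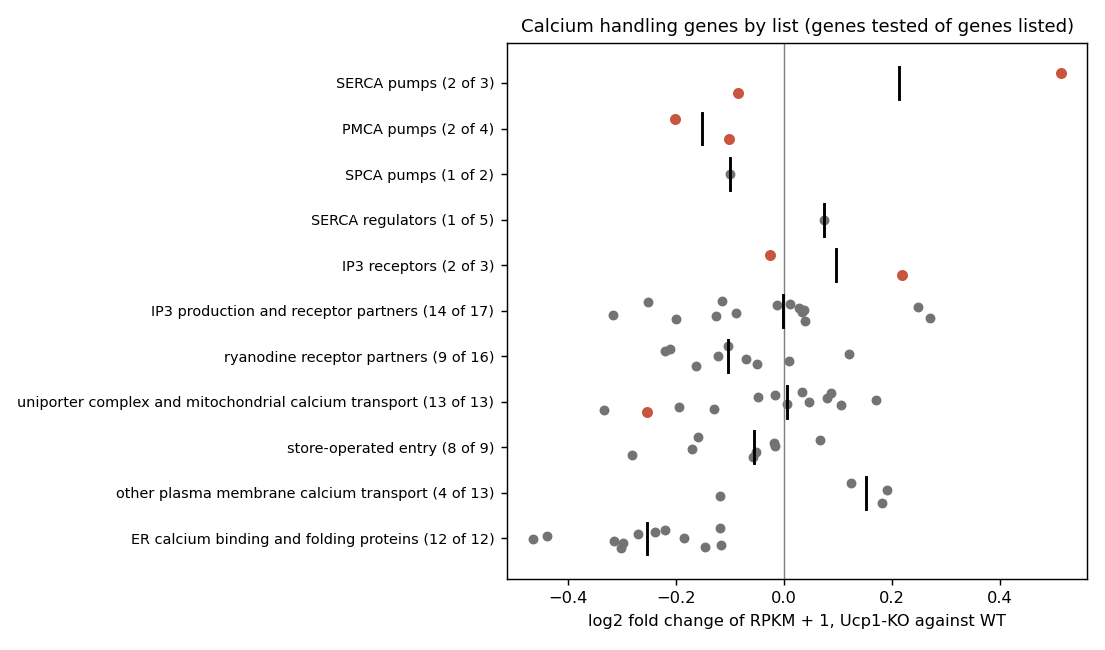
Log2 fold change of RPKM + 1 (horizontal axis, Ucp1-KO against WT) of the calcium handling genes tested, by list (vertical axis, with the number tested of the number listed). Red points are genes of the set of 10, grey points other genes and black bars the medians. The 12 genes of the chaperone list lie below 0, and Atp2a3 has the highest value of all at 0.51.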

How the data were processed

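Libraries were sequenced by the authors as single reads of 50 bases. Reads were mapped to mouse build 38 and those with a unique position assigned to annotated transcripts with Genomatix software, and the deposited values are RPKM per transcript and culture. Groups and replicate numbers were taken from the sample titles. Of the 168326 rows, the 28890 RefSeq rows were used, and those with a mean of at least 0.5 RPKM entered limma 3.58.1 (R 4.3.3) as log2(RPKM + 1), adjusted by Benjamini-Hochberg with a threshold of 0.05. The authors compared genotypes with DESeq2 and list Ucp1 among their differential genes. That test was not run here. Read numbers were recovered from RPKM, transcript lengths and library totals, and were whole within 0.005 reads, plus 1e-06 of the read number. For 2603 of the 16865 rows tested the GENCODE length gave whole reads, and for the other 14262 the length was the shortest that did. The same search returned 98.8% of the 2603 known lengths, and with library totals changed by up to 3% it found a length for 1.84% of rows. Single genes and ratios were compared by exact two-sided permutation tests in Python 3.11.15. On simulated data, 200 of 16865 rows were changed 3-fold, each with a mean of at least 2 RPKM. Limma called 193 of these 200 and 6 others, and 0 rows when none was changed. The simulated noise was independent between rows, which the real cultures need not follow. The check thus does not give the sensitivity in these data, where Ucp1 had a limma adjusted p of 0.868.

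The 10 genes and the gene lists were chosen with earlier results of these data known. All 10 genes are named. Of the calcium lists, the most abundant gene of each, those with an unadjusted p under 0.05, the absent members of each family, Sln, Pln and the uniporter partners are named, apart from genes that are not reported here. Cell type markers were taken from 8 fixed lists. Strit1 was not analysed here. Coordinates are from RefSeq on GRCm38.p6 and sequences from GENCODE M21. Alternatives were 0.1 RPKM added, no minimum, 1 row per gene, median-of-ratios scaling, limma-voom on reads, rows of all annotations, another row per gene and leaving out each culture.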

Additional observations from a re-analysis of the deposited data

How the results depend on the processing

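No row was called at an adjusted p under 0.05 in limma under the main settings or any of the 12 alternatives, including limma-voom on reads and each culture left out. With 0.1 RPKM added, no minimum, 1 row per gene, other scaling, limma-voom or all annotations, the log2 fold changes of the 7 genes tested kept their sign, as did those of the 4 with a second row when that row was used. Leaving out single cultures, the number of the 10 genes at an unadjusted p under 0.05 ran from 0 to 2, the number whose genotypes did not overlap from 0 to 4 and the number of calcium list genes at an unadjusted p under 0.05 from 0 to 15. The last was 1 (Plcd1, named after its value was seen) with median-of-ratios scaling. Over the same left-out cultures the log2 fold change ran from -0.23 to 0.011 for Atp2b1 and from -0.15 to 0.20 for Itpr2, the Itpr1 share differed between genotypes by -0.25 to 8.90 percentage points the Mcub to Mcu ratio by -0.0783 to 0.0306, the Atp2a2 share by -13.6 to -3.96 points, the Atp2b1 share by 0.741 to 6.19 points and the IP3 receptor to SERCA ratio by 0.00469 to 0.0189. The sign turned without Ucp1-KO replicate 15 for Atp2b1 and Mcub, without Ucp1-KO replicate 13 for the Itpr1 share and without either this culture or WT replicate 12 for Itpr2. With the rows of each gene summed, the IP3 receptor to SERCA ratio differed by 1.29e-05 in place of 0.0105. The causes were not tested. No paired analysis was possible because the genotypes share no replicate number. Depth limits Ryr3, Sln and Pln, which were at or below 3 reads in every culture.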
